A study of Mus musculus with 17 samples.

Results

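The genes for the thrombin receptor F2r and its relatives F2rl1 and F2rl2 lie side by side on mouse chromosome 13, together with S100z, Crhbp, Aggf1 and Iqgap2. Every accessible region on chromosome 13 that the deposited table assigns to 1 of these 7 genes, by nearest transcript or nearest transcription start, was taken. This gave 26 regions of 66177 in the table. The locus was chosen by its measured accessibility in Dnmt3-deficient against Dnmt3-sufficient bone marrow plasma cells, where it was higher in the former, so that contrast is described here without a test. Accessibility was measured by ATAC-seq, in which a transposase cuts open chromatin and attaches sequencing adapters to it.

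Protease-activated receptors are G protein-coupled receptors that are switched on when a protease clips their extracellular end and exposes a tethered ligand. F2r encodes PAR1, the main thrombin receptor of many cell types. F2rl1 encodes PAR2, which is cleaved by trypsin-like proteases rather than thrombin, and F2rl2 encodes PAR3, which can act as a cofactor for thrombin on other receptors. Dnmt3a and Dnmt3b are the enzymes that place new methyl groups on CpG dinucleotides.

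The 16 libraries came from mice of the B6;129S4 background, 8 to 12 weeks old, that all carried Dnmt3afl/fl and Dnmt3bfl/fl alleles. Dnmt3-deficient (KO) mice also carried 1 Cre allele active in B cells, and Dnmt3-sufficient (C) littermates carried none. Naive B cells (nB, B220+ Fas- GL7-) came from lymph nodes of unimmunized males, with 1 mouse in each of 3 C and 2 KO libraries. Germinal center B cells (GCB, B220+ Fas+ GL7+ PE+) came from lymph nodes 30 days after immunization with phycoerythrin (PE) in complete Freund's adjuvant, with 2 mice of the same sex pooled in each of 2 C and 4 KO libraries. Bone marrow plasma cells (BMPC, CD138+) came from immunized females on day 30, with 1 mouse in each of 3 C and 2 KO libraries. A further library labelled KO BMPC was not analysed here. The nB and GCB differed in immunization and BMPC came from another organ, and nB were all male and BMPC all female, so that these cannot be told apart from cell type in comparisons between cell types.

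Values are RPPM, the reads in a region scaled to 1000000 reads in all regions of that library. Differences are on the log2(RPPM + 1) scale, and a call required both a limma p, adjusted over all 66177 regions, of 0.01 or lower and an absolute difference of 1 or more, that is 2-fold. The nB libraries held 4104875 to 6079018 reads in regions, the GCB libraries 907959 to 2280954, and the BMPC libraries 5357687 to 8232313. A floor of 3 reads corresponded to 0.494 to 0.731 RPPM in nB, 1.32 to 3.30 RPPM in GCB and 0.364 to 0.560 RPPM in BMPC. Floors cover counting error only, since the reads carry no molecular identifiers. The C BMPC libraries also served to choose the locus, which favoured low C BMPC values, so p-values of comparisons with C BMPC are not independent of that choice, and where C BMPC was lower than C GCB the difference is given without one. As a check of the labels, the summed RPPM of 5 naive B cell markers was 217 to 254 in nB and 93.9 to 99.6 in BMPC. The 6 plasma cell markers summed to 296 to 333 in BMPC and to 148 to 240.1 in the other libraries. Irf4 in this list went the other way, with means of 44.1 and 39.4 RPPM in C and KO BMPC against 57.4 and 58.4 in C and KO nB. The means of the other genes of the list were higher in BMPC than in nB. The 6 germinal center markers summed to 170 to 226 in GCB, above the 148 to 166 in nB but overlapping the 181 to 200.02 in BMPC, so that this list did not set GCB apart from BMPC. In these sorted populations, fewer cells with an open region and a less open region in every cell cannot be told apart.

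Along the chromosome the order was Aggf1, Crhbp, S100z, F2rl1, F2r and Iqgap2, each read from the minus strand. Aggf1 had 4 regions, Crhbp 1, S100z 2, F2rl1 5, F2r 4 and Iqgap2 10 by nearest transcript. No region carried the F2rl2 symbol. F2rl2 spans chr13:96466808-96472694 of mm9 on the plus strand and lies inside Iqgap2, and none of the 10 Iqgap2 regions fell within it. F2rl2 can therefore be described only through the Iqgap2 introns on either side. Promoter regions stood apart in sequence, with 8.66 CpG per 100 bases at Aggf1, 5.52 at F2rl1, 7.77 at F2r and 7.39 at Iqgap2, against a median of 1.46 over 65893 regions on named chromosomes. The distal S100z region held 1.68 CpG per 100 bases.

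Sequences of 300 bases from mm9 are shown for the region with the greatest contrast between genotypes in BMPC (S100z distal region, chr13:96264789-96265088), for the stretch immediately before the start of the thrombin receptor gene F2r (chr13:96388415-96388714), and for the regions that rose most (Crhbp downstream region, chr13:96189412-96189711) and fell most (Iqgap2 intronic region, chr13:96455783-96456082) from C nB to C BMPC. Each is written 5′ to 3′ on the strand named, and capitals mark CpG dinucleotides.
S100z distal region, plus strand: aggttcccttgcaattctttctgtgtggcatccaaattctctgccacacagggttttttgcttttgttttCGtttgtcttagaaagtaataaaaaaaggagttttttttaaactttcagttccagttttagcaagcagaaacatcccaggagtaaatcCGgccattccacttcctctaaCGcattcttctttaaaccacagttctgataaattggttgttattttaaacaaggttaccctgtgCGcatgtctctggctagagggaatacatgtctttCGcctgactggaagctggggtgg
F2r upstream window, minus strand: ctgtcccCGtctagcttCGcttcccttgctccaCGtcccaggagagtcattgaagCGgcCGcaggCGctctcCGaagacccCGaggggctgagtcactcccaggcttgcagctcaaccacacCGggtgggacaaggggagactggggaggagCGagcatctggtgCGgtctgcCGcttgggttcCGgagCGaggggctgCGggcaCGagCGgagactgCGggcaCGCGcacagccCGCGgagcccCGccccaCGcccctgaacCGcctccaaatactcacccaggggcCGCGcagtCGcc
Crhbp downstream region, plus strand: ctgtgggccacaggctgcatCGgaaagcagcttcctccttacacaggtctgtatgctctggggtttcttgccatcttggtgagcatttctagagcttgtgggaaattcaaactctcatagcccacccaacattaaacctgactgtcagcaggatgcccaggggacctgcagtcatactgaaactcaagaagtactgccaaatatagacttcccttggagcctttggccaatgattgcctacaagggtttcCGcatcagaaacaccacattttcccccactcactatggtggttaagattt
Iqgap2 intronic region at +205.9 kb, plus strand: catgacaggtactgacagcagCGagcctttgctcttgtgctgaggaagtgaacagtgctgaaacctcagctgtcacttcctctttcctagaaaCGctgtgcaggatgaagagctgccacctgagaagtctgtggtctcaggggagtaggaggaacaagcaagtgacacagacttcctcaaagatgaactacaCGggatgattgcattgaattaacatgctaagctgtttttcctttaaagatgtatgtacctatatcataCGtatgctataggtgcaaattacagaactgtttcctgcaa

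The 300 bases before F2r held 28 CpG, against a median of 9 for the same window of 22380 protein-coding genes. The central windows held 5 CpG at the S100z distal region, 4 at the Iqgap2 intronic region and 2 at the Crhbp downstream region, against a median of 5 over 53185 regions long enough to be scored. Letters for factors studied in plasma cell chromatin were searched on both strands: CAGCTG for E2A, GGAAGT for PU.1, and, for the composite of an ETS factor such as PU.1 with an IRF, GGAA followed by NN (any bases) and GAAA, which can overlap GGAAGT. The S100z window held 1 GGAAGT and 1 composite, the Crhbp window 1 GGAAGT, and the Iqgap2 intronic window 3 GGAAGT and 1 CAGCTG. Of all central windows, 20.8% held CAGCTG, 30.4% GGAAGT and 5.83% the composite. The F2r window held none of them, and of all windows before gene starts 13.7%, 22.2% and 3.05% did, in the same order. A match of letters is a description of the sequence only.

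**Figure D1:**
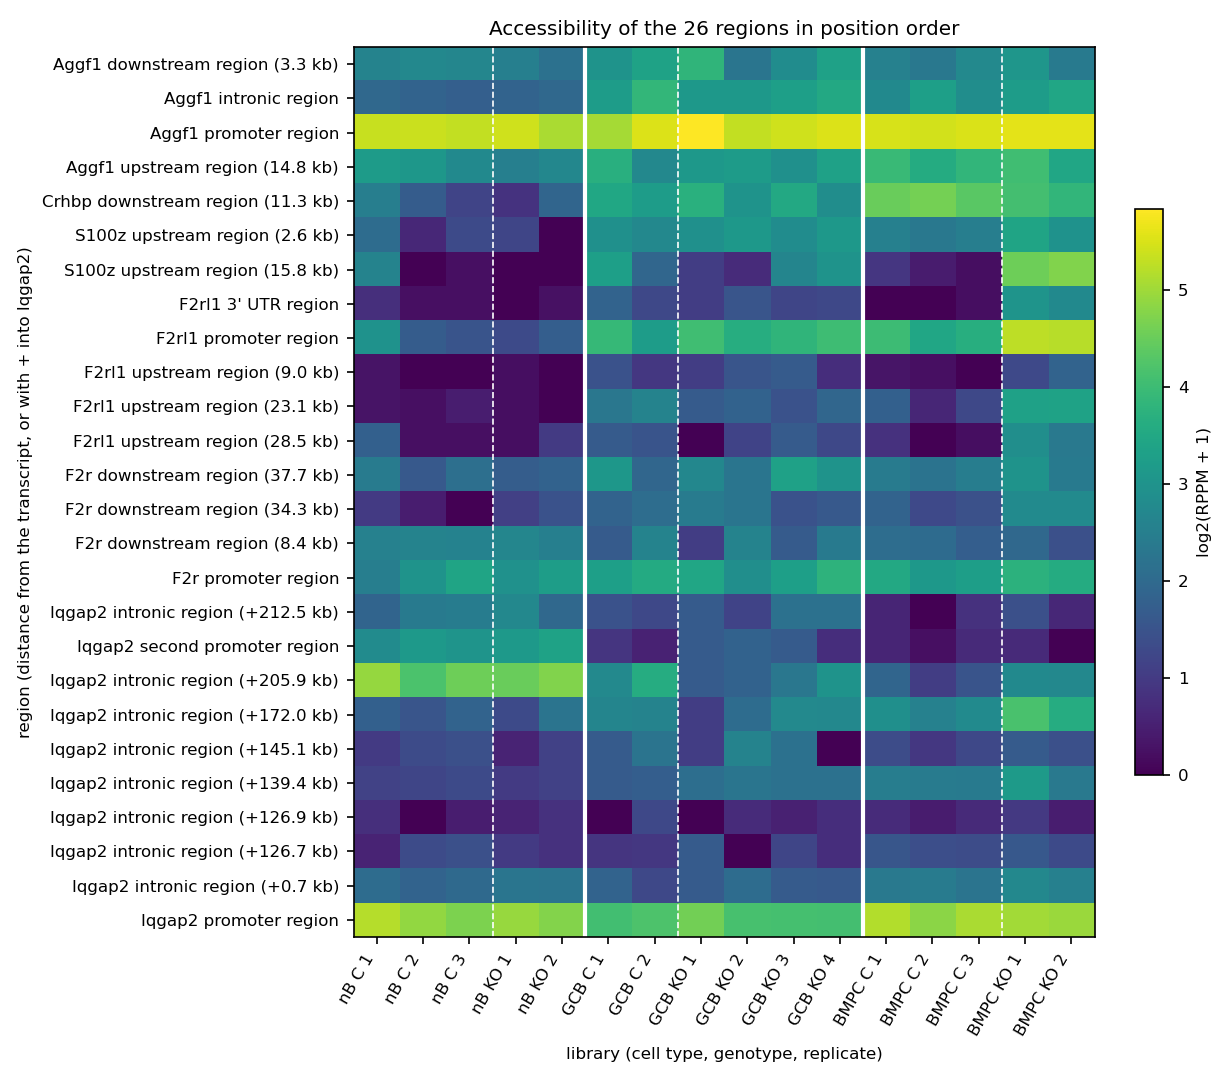
Heat map of log2(RPPM + 1) for the 26 regions (rows, from lower to higher coordinates) in the 16 libraries (columns, by cell type and genotype, with solid lines between cell types and dashed lines between genotypes). The rows from the S100z region at 15.8 kb to the F2rl1 region at 28.5 kb were brightest in the KO BMPC columns, except at 9.0 kb, where GCB libraries overlapped them, and the Iqgap2 rows at +207.1 and +205.9 kb were brightest in nB.

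The receptor gene F2rl1 had a promoter region (chr13:96293864-96295493, covering its promoter, 5′ UTR, an exon and an intron) that was low in nB, intermediate in GCB and C BMPC, and highest in KO BMPC. In C nB it measured 6.82, 2.26 and 1.86 RPPM, and in KO nB 1.48 and 2.36 RPPM. The C GCB libraries gave 14.1 and 8.43 RPPM and the KO GCB libraries 15.4, 11.5, 13.2 and 15.4 RPPM. The C BMPC libraries gave 15.1, 10.0 and 11.7 RPPM. Both KO BMPC libraries, at 37.2 and 35.8 RPPM, lay above all 14 others. From C nB to C GCB the region rose by 1.51 on the log2(RPPM + 1) scale (SE 0.32, limma, adjusted p = 0.000319), and from KO nB to KO GCB by 2.35 (SE 0.30, adjusted p = 3.26e-07). From C nB to C BMPC it rose by 1.65 (SE 0.28, adjusted p = 1.36e-05). Between C GCB and C BMPC the difference was 0.14 (SE 0.32, adjusted p = 0.744), less than the spread between libraries. The call between C nB and C GCB was lost without C GCB library 1 (adjusted p = 0.0241).

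The other F2rl1 regions held few reads in nB, with 2.44 RPPM in C nB library 1 at 28.5 kb as their highest value. The region at its 3′ UTR (chr13:96282574-96283044) measured 0.731, 0.188 and 0.186 RPPM in C nB and 0 and 0.197 RPPM in KO nB. It measured 2.64 and 1.41 RPPM in C GCB, 1.10 to 1.91 RPPM in KO GCB, and 0, 0 and 0.156 RPPM in C BMPC, which is 1 read in all 3 libraries together. The KO BMPC libraries stood clear of these at 7.17 and 5.79 RPPM, from 59 and 31 reads. The 3′ UTR region was lower in C BMPC than in C GCB by a log2 difference of -1.495 (SE 0.35). It was higher in KO GCB than in KO nB by 1.14 (SE 0.33, limma, adjusted p = 0.00596), a call lost without KO GCB library 2 or KO nB library 1 or 2 (adjusted p = 0.0118, 0.0809 and 0.0283), and the GCB values were close to the floor of those libraries.

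The intergenic region 23.1 kb upstream of F2rl1 (chr13:96318274-96318778) was almost without reads in nB, at 0.244, 0.188 and 0.372 RPPM in C and 0.165 and 0 RPPM in KO. C GCB measured 3.96 and 5.15 RPPM, and KO GCB 2.20, 2.55, 1.75 and 2.80 RPPM, so that the GCB genotypes did not overlap. C BMPC measured 2.47, 0.547 and 1.40 RPPM and KO BMPC 9.11 and 9.33 RPPM. It rose from nB to GCB by 2.13 in C (SE 0.35, limma, adjusted p = 2.06e-05) and by 1.61 in KO (SE 0.34, adjusted p = 0.00026), and was lower in C BMPC than in C GCB by a log2 difference of -1.24 (SE 0.35). The genotypes of GCB differed here by -0.74 (SE 0.34), with an unadjusted p of 0.0352 in limma and an adjusted p of 0.383, and 5.52% of all regions had every KO GCB library below every C GCB library. The call between KO GCB and KO nB was lost without KO nB library 2 (adjusted p = 0.01, just above the limit).

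A smaller region 9.0 kb upstream of F2rl1 (chr13:96304205-96304368) measured 0.244, 0 and 0 RPPM in C nB, 0.165 and 0 RPPM in KO nB, 1.76 and 0.937 RPPM in C GCB and 0.699 to 2.19 RPPM in KO GCB. C BMPC measured 0.260, 0.182 and 0 RPPM and KO BMPC 1.46 and 2.61 RPPM. KO BMPC thus overlapped GCB here, and only the rise from KO nB to KO GCB was called, at 1.15 (SE 0.35, limma, adjusted p = 0.0083). This call was lost when any of 12 libraries was left out, each nB and BMPC library and KO GCB libraries 2 and 3, with an adjusted p of up to 0.088 without KO nB library 2. The region 28.5 kb upstream (chr13:96323694-96324251) measured 2.44, 0.188 and 0.186 RPPM in C nB, 0.165 and 0.984 RPPM in KO nB, 2.20 and 1.87 RPPM in C GCB and 0 to 2.19 RPPM in KO GCB. C BMPC measured 0.780, 0 and 0.156 RPPM and KO BMPC 6.44 and 4.11 RPPM, above all others. It was called in none of the 6 tested comparisons.

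The promoter region of the thrombin receptor gene F2r was called in none of the 6 tested comparisons. This region (chr13:96388063-96388744) measured 4.63, 6.97 and 9.68 RPPM in C nB, 6.74 and 8.46 RPPM in KO nB, 8.80 and 10.8 RPPM in C GCB, and 9.91, 6.36, 8.77 and 12.6 RPPM in KO GCB. C BMPC gave 10.4, 7.66 and 8.72 RPPM and KO BMPC 12.4 and 11.0 RPPM. The KO BMPC libraries lay above every nB, C GCB and C BMPC library and within the range of KO GCB. The group means were ordered as C nB (7.09 ± 2.53 RPPM, SD, n = 3), KO nB (7.60 ± 1.21, SD, n = 2), C BMPC (8.93 ± 1.38, SD, n = 3), KO GCB (9.41 ± 2.58, SD, n = 4), C GCB (9.79 ± 1.40, SD, n = 2) and KO BMPC (11.7 ± 0.974, SD, n = 2). Each step but the last was smaller than the larger SD of its pair of groups. Per kilobase, a scale that allows regions to be compared, the F2r promoter was more accessible than the F2rl1 promoter in C nB (10.4 against 2.24 RPPM per kb) and less accessible in KO BMPC (17.2 against 22.4 RPPM per kb).

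Of the 3 regions downstream of F2r, the one at 34.3 kb (chr13:96336962-96337434) was called between cell types within C. It measured 0.974, 0.377 and 0 RPPM in C nB, 1.15 and 1.77 RPPM in KO nB, 2.64 and 3.28 RPPM in C GCB and 1.75 to 4.41 RPPM in KO GCB. C BMPC gave 2.60, 1.46 and 1.71 RPPM, and KO BMPC, at 5.95 and 5.97 RPPM, lay above all others. From C nB it rose by 1.499 in C GCB (SE 0.37, limma, adjusted p = 0.00174) and by 1.05 in C BMPC (SE 0.33, adjusted p = 0.00846). The difference between KO GCB and KO nB was 0.66 (SE 0.35, limma, adjusted p = 0.12) and was not called. The KO nB libraries were both above the C nB libraries, with a difference of 0.81 (SE 0.37), an unadjusted p of 0.0381 in limma and an adjusted p of 1. The rise to C GCB was lost without C GCB library 2 or C nB library 3 (adjusted p = 0.0239 and 0.0148), and that to C BMPC without any 1 of the BMPC and nB libraries except C nB library 1, with an adjusted p of up to 0.068 without C nB library 3. The regions at 37.7 kb and 8.4 kb measured 2.07 to 9.21 RPPM and 1.10 to 5.43 RPPM over all libraries and were not called.

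S100z encodes a calcium-binding protein of the S100 family and is the neighbour of F2rl1 on the side of its 3′ end. Its distal region, 15.8 kb upstream (chr13:96264434-96265443, intergenic), measured 5.12, 0 and 0.186 RPPM in C nB and 0 in both KO nB libraries. C GCB gave 8.80 and 2.81 RPPM and KO GCB 1.10, 0.636, 5.26 and 6.99 RPPM. The GCB values thus spread over an order of magnitude without separating by genotype. C BMPC gave 0.910, 0.365 and 0.156 RPPM, from 7, 2 and 1 reads, and KO BMPC 22.2 and 25.4 RPPM, from 183 and 136 reads. Per kilobase the group mean was 0.472 RPPM in C BMPC and 23.6 RPPM in KO BMPC, close to the 22.4 RPPM of the F2rl1 promoter in KO BMPC. It was lower in C BMPC than in C GCB by a log2 difference of -2.08 (SE 0.61), which became -1.40 without C GCB library 1. It was higher in KO GCB than in KO nB by 1.86 (SE 0.58, limma, adjusted p = 0.00966), a call lost when any of 11 libraries was left out, each BMPC, C GCB and KO nB library and KO GCB libraries 3 and 4, with an adjusted p of up to 0.0636 without KO nB library 1.

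The S100z region closest to its start, 2.6 kb upstream (chr13:96251174-96251831), was low in nB. It measured 3.17, 0.565 and 1.49 RPPM in C nB, 1.32 and 0 RPPM in KO nB, 6.60 and 5.62 RPPM in C GCB and 6.14 to 7.69 RPPM in KO GCB. C BMPC gave 4.81, 4.01 and 4.67 RPPM and KO BMPC 9.60 and 6.91 RPPM. All GCB and BMPC libraries lay above all nB libraries. From nB it rose by 1.49 in C GCB (SE 0.37, limma, adjusted p = 0.00167), by 2.39 in KO GCB (SE 0.35, adjusted p = 2.45e-06) and by 1.12 in C BMPC (SE 0.33, adjusted p = 0.00477). The call in C GCB was lost without C GCB library 1 or 2 or C nB library 2 (adjusted p = 0.0243, 0.0108 and 0.0175), and that in C BMPC without any 1 of the C BMPC libraries or C nB library 2 or 3, with an adjusted p of up to 0.0618 without C nB library 2.

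Crhbp encodes the protein that binds corticotropin-releasing hormone. Its single region lay 11.3 kb downstream (chr13:96189124-96190000) and measured 4.63, 2.26 and 1.30 RPPM in C nB, 0.823 and 2.76 RPPM in KO nB, 10.1 and 8.43 RPPM in C GCB and 6.29 to 12.1 RPPM in KO GCB. C BMPC gave 21.8, 23.7 and 19.2 RPPM and KO BMPC 16.03 and 13.4 RPPM. The 3 cell types did not overlap, and this was the only region of the 26 where both KO BMPC libraries lay below every C BMPC library. The rise from C nB was 1.56 to C GCB (SE 0.33, limma, adjusted p = 0.000423) and 2.69 to C BMPC (SE 0.30, adjusted p = 1.15e-08), and from KO nB to KO GCB it was 1.89 (SE 0.32, adjusted p = 1.81e-05). The step from C GCB to C BMPC was 1.14 (SE 0.33, adjusted p = 0.00555), and its call was lost without any 1 of the C GCB and C BMPC libraries, with an adjusted p of up to 0.0591 without C GCB library 2. The call between C nB and C GCB was lost without C GCB library 1 (adjusted p = 0.0121).

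Aggf1 encodes an angiogenic factor with G-patch and forkhead-associated domains. Its promoter region (chr13:96144701-96145728) was the most accessible of the 26, in RPPM and per kilobase, and was called in no tested comparison. It measured 39.5, 40.5 and 38.3 RPPM in C nB, 41.9 and 33.1 RPPM in KO nB, 32.1 and 45.4 RPPM in C GCB, 38.2 to 56.2 RPPM in KO GCB, 43.8, 42.7 and 44.7 RPPM in C BMPC and 47.1 and 47.6 RPPM in KO BMPC. KO BMPC lay above C BMPC here and within the range of KO GCB. The intronic region 1.1 kb inside the gene (chr13:96143878-96144231) measured 2.92, 2.64 and 2.42 RPPM in C nB, 2.63 and 2.95 RPPM in KO nB, 8.36 and 13.6 RPPM in C GCB and 7.64 to 10.5 RPPM in KO GCB. C BMPC gave 5.85, 8.76 and 6.23 RPPM and KO BMPC 8.38 and 9.89 RPPM. All nB libraries were below all others, and the rise was 1.68 in C GCB (SE 0.27, limma, adjusted p = 1.4e-05), 1.34 in KO GCB (SE 0.26, adjusted p = 0.000104) and 1.10 in C BMPC (SE 0.24, adjusted p = 0.000315). Without C BMPC library 2 the last difference was 0.95 (adjusted p = 0.00501), under the 2-fold limit. The Aggf1 regions 3.3 kb downstream and 14.8 kb upstream measured 3.54 to 13.2 RPPM and 4.77 to 15.4 RPPM and were not called.

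Iqgap2 encodes a scaffold protein that binds actin and calmodulin. Its main promoter region (chr13:96661413-96662887) measured 24.9 to 35.3 RPPM in nB with a median of 28.4 in C, 15.8 and 17.3 RPPM in C GCB, 16.1 to 23.1 RPPM in KO GCB, 34.9, 27.2 and 33.3 RPPM in C BMPC and 31.5 and 30.2 RPPM in KO BMPC. All GCB libraries lay below all others. The differences from C GCB, 0.89 to C BMPC (SE 0.18, limma, adjusted p = 0.00016) and 0.79 to C nB (SE 0.18, adjusted p = 0.000889), did not reach the 2-fold limit for a call.

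More than 200 kb into Iqgap2, 3 neighbouring regions were higher in C nB than in C BMPC. The intronic region at +205.9 kb (chr13:96455600-96456265), the most accessible of them, measured 29.0, 17.1 and 22.3 RPPM in C nB and 21.7 and 25.4 RPPM in KO nB. C GCB gave 5.72 and 11.2 RPPM, KO GCB 2.20, 2.55, 3.95 and 6.99 RPPM, C BMPC 2.73, 1.09 and 1.87 RPPM, and KO BMPC 5.83 and 5.60 RPPM. The nB libraries lay above all others, and C BMPC below both KO BMPC libraries. Against C nB the difference was -1.36 in C GCB (SE 0.34, limma, adjusted p = 0.0019) and -3.05 in C BMPC (SE 0.30). Against KO nB it was -2.41 in KO GCB (SE 0.32, limma, adjusted p = 7.41e-07), and from C GCB to C BMPC it was -1.69 (SE 0.34). The GCB genotypes differed by -0.98 (SE 0.32), with an unadjusted p of 0.00525 in limma and an adjusted p of 0.209. The call between C nB and C GCB was lost without C GCB library 1 or C nB library 1 (adjusted p = 0.0873 and 0.016).

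The second promoter-annotated region of Iqgap2 at +207.1 kb (chr13:96454609-96455021) measured 6.09, 7.72 and 7.07 RPPM in C nB, 7.73 and 9.25 RPPM in KO nB, 0.880 and 0.468 RPPM in C GCB and 0.699 to 2.55 RPPM in KO GCB. BMPC ranged from 0 to 0.623 RPPM, at or near the floor of those libraries. The difference from nB was -2.26 in C GCB (SE 0.36, limma, adjusted p = 1.33e-05), -1.76 in KO GCB (SE 0.34, adjusted p = 0.000135) and -2.47 in C BMPC (SE 0.32). The intronic region at +212.5 kb (chr13:96449124-96449699) measured 2.68, 4.33 and 4.47 RPPM in C nB, 5.59 and 2.95 RPPM in KO nB, 1.27 to 3.51 RPPM in GCB, 0.520, 0 and 0.779 RPPM in C BMPC and 1.70 and 0.560 RPPM in KO BMPC. Only its difference between C BMPC and C nB was called, at -1.77 (SE 0.35). C BMPC held 4, 0 and 5 reads there, and the choice of the locus favoured such low values.

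Toward the middle of Iqgap2 the direction was the other one. The intronic region at +139.4 kb (chr13:96522004-96522850) measured 1.22, 1.32 and 1.49 RPPM in C nB, 0.987 and 1.18 RPPM in KO nB, 2.20 and 2.34 RPPM in C GCB, 3.30 to 3.82 RPPM in KO GCB, 4.55, 4.38 and 4.20 RPPM in C BMPC and 8.02 and 4.11 RPPM in KO BMPC. Its rise from nB was 1.20 in C BMPC (SE 0.28, limma, adjusted p = 0.000587) and 1.12 in KO GCB (SE 0.30, adjusted p = 0.00266), the latter lost without KO nB library 1 or 2 (adjusted p = 0.0399 and 0.0206). All 4 KO GCB libraries lay above both C GCB libraries, the only such case among the 26 regions, with a difference of 0.47 (SE 0.30, limma, adjusted p = 0.557). Over all regions of the table this happened in 7.47%. The other 5 Iqgap2 regions measured between 0 and 16.9 RPPM over all libraries and were not called.

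**Figure D2:**
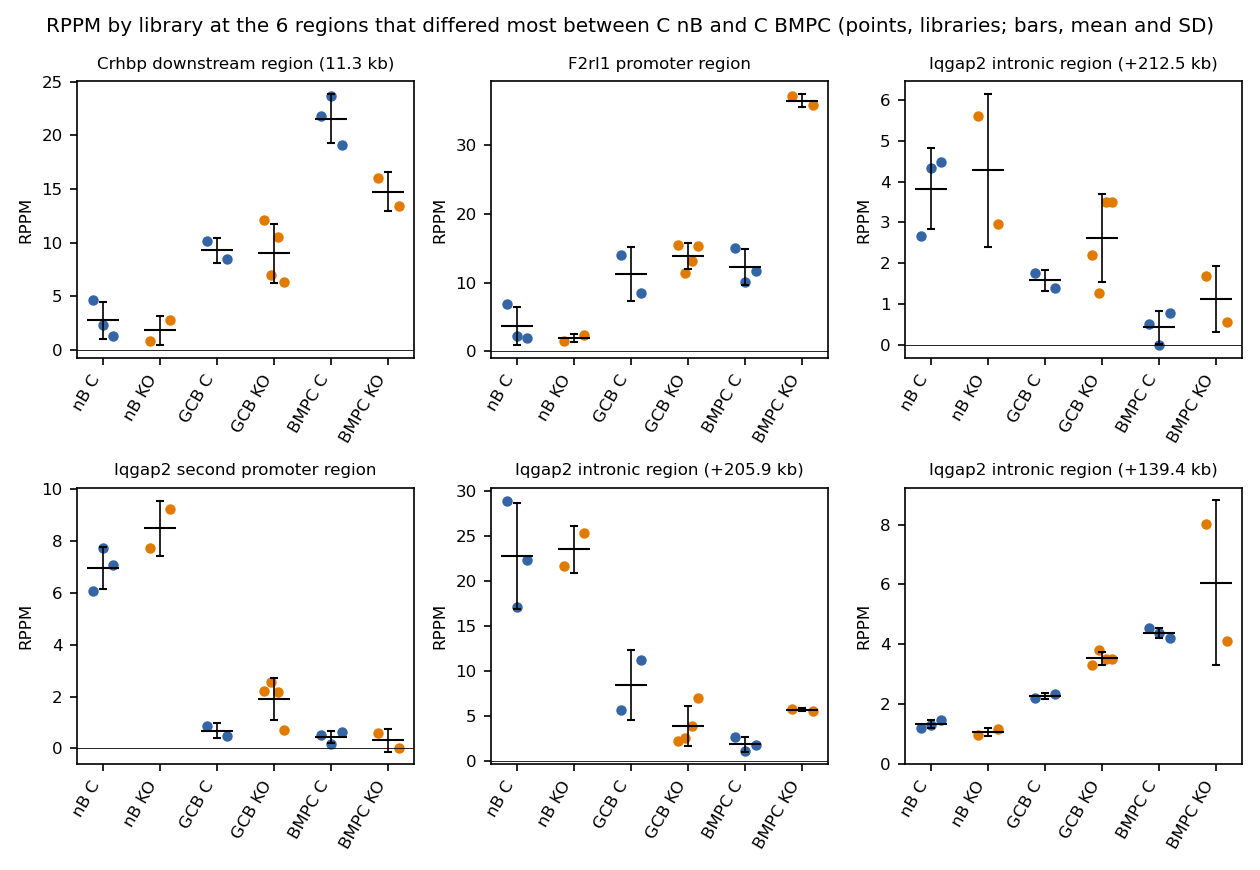
RPPM (linear axes from 0) in each library for the 6 of the 26 regions with the greatest absolute difference between C nB and C BMPC among those called. Points are libraries (blue C, orange KO), and bars show the mean and SD of each group. Crhbp stepped up from nB to GCB to BMPC, and the Iqgap2 region at +207.1 kb was highest in nB. The Iqgap2 region at +205.9 kb stepped down from nB to GCB to BMPC in C. In KO its mean was highest in nB, but higher in BMPC (5.72 RPPM) than in GCB (3.92 RPPM).

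Counted together, 8 of the 26 regions were called between C GCB and C nB (22.7% over all regions), 6 of them higher in GCB (over all regions 14.2% were called higher) and 2 lower (8.47%). Between KO GCB and KO nB, 11 were called (26.3% over all regions), 9 higher (18.4% over all regions) and 2 lower (7.84%). Between C BMPC and C nB 9 were called (38.1% over all regions), 6 higher (18.0%) and 3 lower (20.1%), and between C BMPC and C GCB 5 were called (30.4%), 1 higher (11.3%) and 4 lower (19.1%). The latter pair of comparisons shares the C BMPC libraries with the contrast for which the locus was chosen, and all comparisons within C or with the same nB libraries share samples. The median difference over the 26 regions was 0.50, 0.57, 0.26 and -0.21 in these 4 comparisons, against 0.05, 0.12, 0.03 and -0.06 over all regions and 0.72, 1.07, 0.30 and -0.10 over the 43 regions of other genes within 1 Mb. Regions with few reads in nB were higher in the other cell types in general, since the 10583 regions with a C nB mean under 1 RPPM had median values of 0.473 RPPM in C nB, 1.82 in C GCB and 2.25 in C BMPC. The part of this in the rises at F2rl1 and S100z was not tested.

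Genotype was compared within nB and within GCB, where the libraries had no part in the choice of the locus. No region of the 26 was called in either. In GCB limma called 21 regions of the whole table (0.0317%), and 3 of the 26 had an unadjusted p under 0.05 (11.8% over all regions). In nB limma called 0 regions of the table (0%), and 1 of the 26 had an unadjusted p under 0.05 (1.67%). On the recovered reads, edgeR's quasi-likelihood test called 0 of the 26 in GCB (0.00151% over all regions) and in nB (0.0106%), its likelihood ratio test 0 of the 26 in GCB (0.0181%) and in nB (0.0151%), and DESeq2 0 of the 26 in GCB (0%) and in nB (0.00151%). The median KO minus C difference over the 26 regions was -0.07 in GCB and -0.12 in nB, against 0.03 and -0.01 over all regions. Whether genotype acted differently in GCB and nB was tested by an interaction term in limma, which called 0 regions of the table, with 1 of the 26 at an unadjusted p under 0.05 (6.21% over all regions). On simulated counts, a 4-fold change between KO and C GCB was recovered in 62.5% of 200 changed regions, so that smaller changes could go uncalled at this depth. The changed regions were drawn above a minimum mean read count and simulated with a single fixed dispersion. The F2rl1 regions at the 3′ UTR and at 9.0 and 28.5 kb upstream lay below that minimum, so this share does not cover them. The same holds for the Iqgap2 regions at +212.5, +145.1, +126.9 and +126.7 kb.

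In BMPC the 6 greatest differences between genotypes fell in 6 consecutive regions, from the S100z distal region to the region 28.5 kb upstream of F2rl1 (chr13:96264434-96324251, 59.8 kb). In position order their KO minus C differences on the log2(RPPM + 1) scale were 4.10, 2.83, 1.52, 1.38, 2.12 and 2.28. The other 20 regions ranged from -0.52 to 1.27. In all, 9 of the 26 regions differed by at least 1 (2.27% over all regions), and none by -1 or less. The lowest of the 9, at 1.13, was the Iqgap2 intronic region at +172.0 kb, where C BMPC measured 6.50, 4.93 and 5.92 RPPM and KO BMPC 16.9 and 11.2 RPPM, and the next below was the S100z region at 2.6 kb, at 0.74. Both KO BMPC libraries lay above every C BMPC library in 14 of the 26 regions (20.0% over all regions) and above all other libraries in 8 (6.28%). These values come from the contrast that drew attention to the locus, and nothing is read from them beyond where the differences lay.

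**Figure D3:**
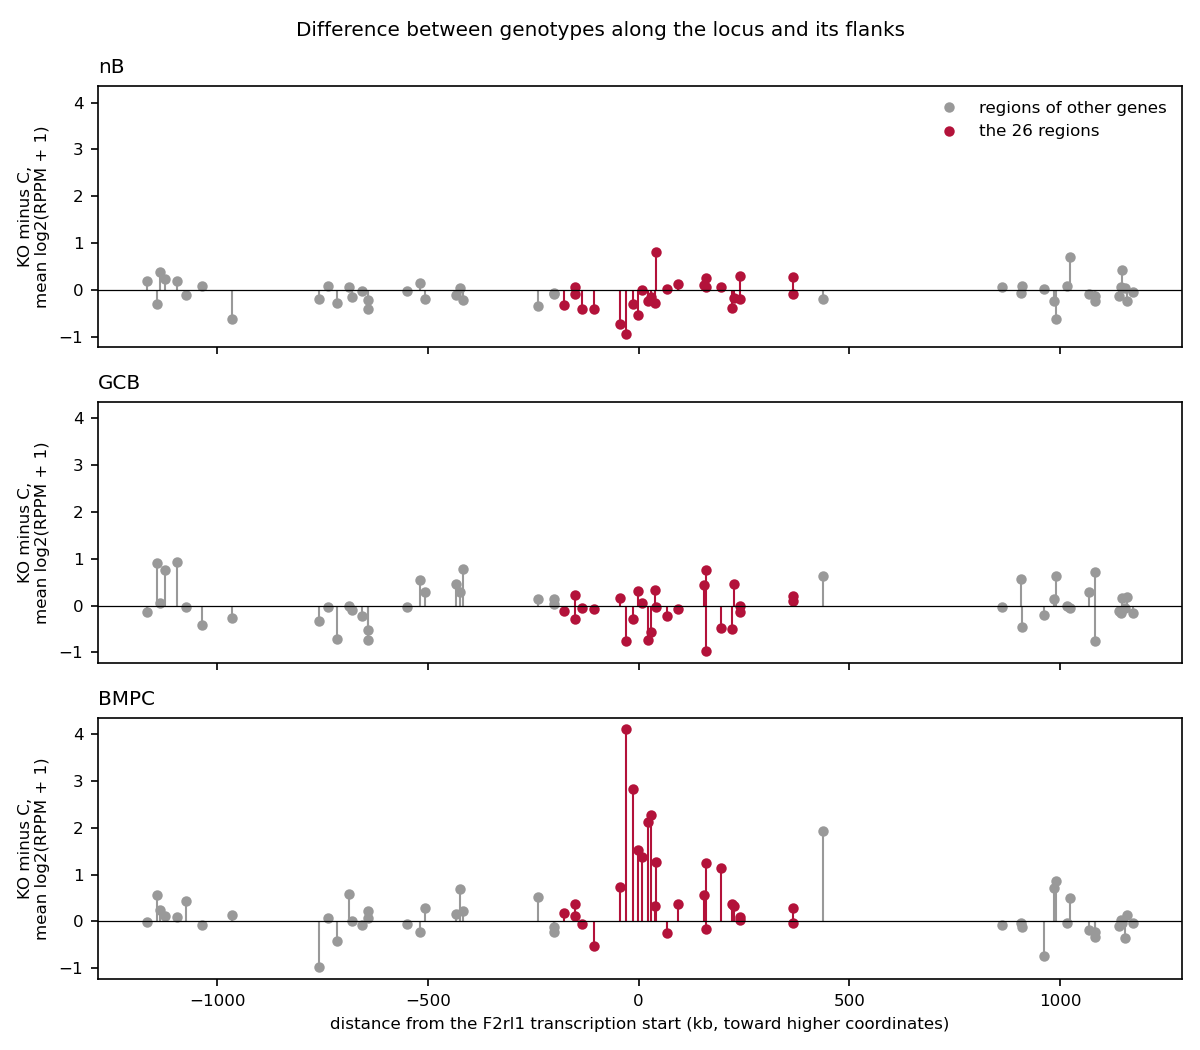
Difference between KO and C (mean log2(RPPM + 1)) in nB, GCB and BMPC for the 26 regions (red) and the 43 regions of other genes within 1 Mb (grey), against distance in kb from the F2rl1 start toward higher coordinates. Differences in nB and GCB scatter around 0, and those in BMPC peak at 4.10 in the S100z distal region just below the start of F2rl1.

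In numbers of reads, KO BMPC held 319 reads at the S100z distal region and C BMPC 10, a ratio scaled by depth of 46.0. At the F2rl1 3′ UTR there were 90 reads against 1, and 9.0 kb upstream 26 against 3, too few in C BMPC for a ratio. The F2rl1 promoter held 498 against 246 reads, a ratio of 2.92. The regions at 23.1 and 28.5 kb upstream held 125 against 31 and 75 against 7 reads, with ratios of 5.81 and 15.4. The promoter, the most CpG-rich of the 6 regions, had the lowest of these 4 ratios and the highest C BMPC level. These ratios come from the contrast that chose the locus and carry no test.

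Summed over the 6 regions, C nB measured 15.6, 2.83 and 2.79 RPPM and KO nB 1.97 and 3.54 RPPM. C GCB measured 33.4 and 20.6 RPPM and KO GCB 20.9, 19.7, 25.9 and 28.7 RPPM. C BMPC measured 19.5, 11.1 and 13.5 RPPM and KO BMPC 83.6 and 83.1 RPPM. The GCB genotypes overlapped, and the KO BMPC libraries differed from each other by less than 1 RPPM. C BMPC lay below every GCB library, but narrowly, at up to 19.5 against 19.7 RPPM. The choice of these regions favoured low C BMPC values. The C nB library at 15.6 RPPM, with 64 reads where the other nB libraries had 12 to 18, stood apart. This library, C nB 1, was the highest nB library in 5 of these 6 regions and in 11 of the 26 (23.9% over all regions). Without it, limma called 9 of the 26 regions between C GCB and C nB, 8 of them higher, and 9 between C BMPC and C nB, 6 of them higher.

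**Figure D4:**
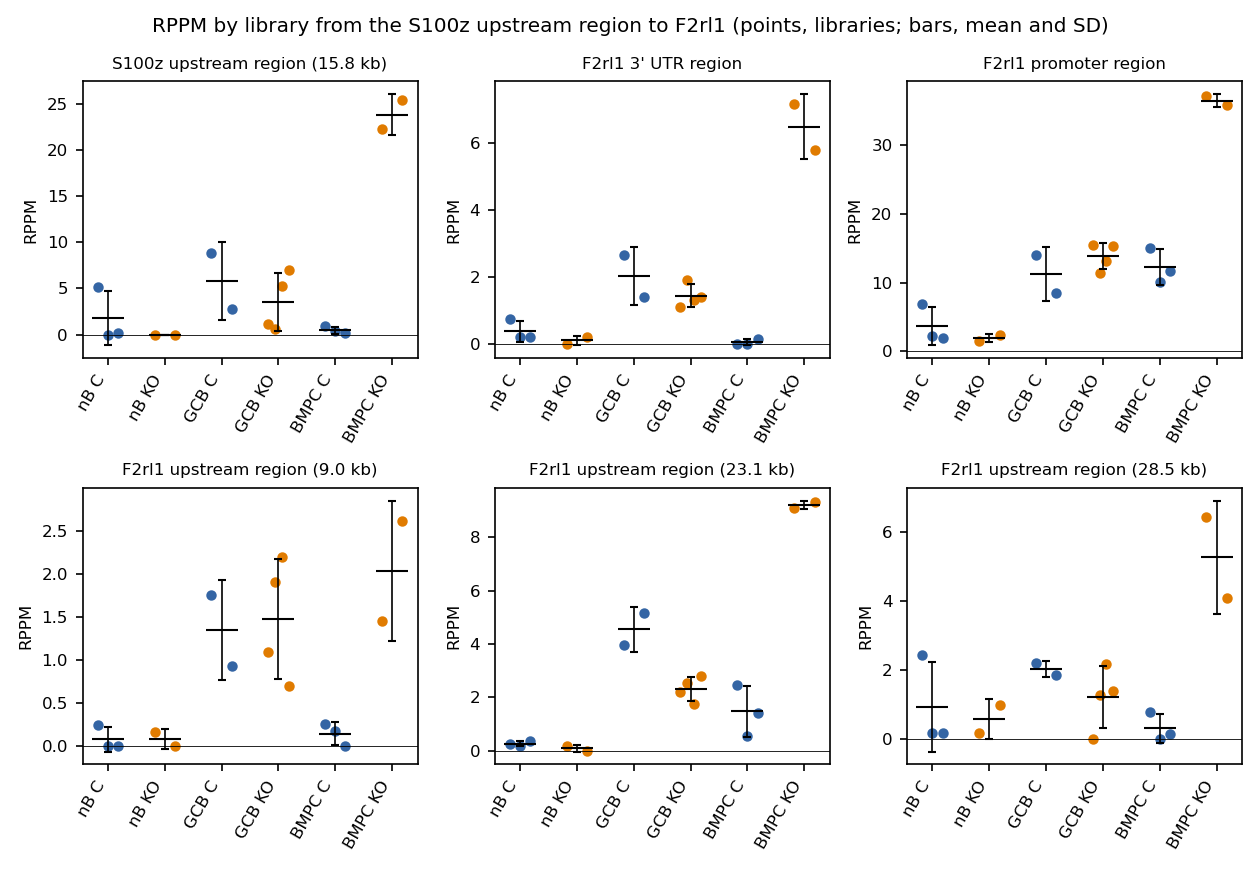
RPPM (linear axes from 0) in each library for the 6 consecutive regions from the S100z distal region to 28.5 kb upstream of F2rl1. Points are libraries (blue C, orange KO), and bars show the mean and SD. KO BMPC exceeded all other groups except at 9.0 kb, where GCB overlapped it, and 1 C nB library was raised at the S100z distal region and the F2rl1 promoter.

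The 43 regions of other genes within 1 Mb on either side differed between KO and C BMPC by -0.97 to 1.92, with a median of 0.02, as against 0.36 for the 26 regions and 0.03 for all regions. The single flanking region at or above 1 lay in Sv2c (chr13:96731660-96732039), which encodes a synaptic vesicle protein, and measured 0.780, 0.182 and 0.311 RPPM in C BMPC and 5.22 and 3.55 RPPM in KO BMPC. Between Sv2c and the 6 regions lay the whole of F2r and the Iqgap2 promoter, where the differences at the promoter regions were 0.36 and -0.03. Also between them lay 3 regions that differed by at least 1, at 1.27 (34.3 kb downstream of F2r), 1.25 (Iqgap2 +205.9 kb) and 1.13 (Iqgap2 +172.0 kb). In the flanks, 11 of 43 regions were called higher and 0 lower between C GCB and C nB (14.2% and 8.47% over all regions), and 20 higher and 0 lower between KO GCB and KO nB (18.4% and 7.84%). Between C BMPC and C nB 16 were called higher and 3 lower (18.0% and 20.1%), and between C BMPC and C GCB 4 higher and 10 lower (11.3% and 19.1%).

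Markers of other cells were read at the region nearest each gene's start. The endothelial list, from a cell type known for F2r, summed over the 4 of its 5 genes with a region to 16.1 to 26.0 RPPM in C BMPC and 31.0 to 31.7 RPPM in KO BMPC, with 2 of the 4 higher in both KO libraries than in every C library. In nB and GCB the same list summed to 34.7 to 55.1 RPPM. The T cell list summed to 73.0 to 80.1 RPPM in C BMPC and 59.0 to 60.9 RPPM in KO BMPC, with 4 of 6 genes measured. None of them was higher in both KO libraries than in every C library. The platelet and megakaryocyte list, with 3 of 5 genes measured, summed to 20.8 to 26.7 RPPM in C BMPC and 24.6 to 25.4 RPPM in KO BMPC. Myeloid, erythroid and mast cell lists overlapped between the genotypes. No gene of these lists was at 0 in all BMPC libraries. The study's flow cytometry panels held stains for CD11b, CD11c, CD90.2 and Ly6-G against autofluorescent cells, CD90.2 being a T cell marker and the others myeloid markers. The part of these cells in the BMPC difference at F2rl1 and S100z was not tested.

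Of 30 other genes of thrombin, protease-activated receptor and corticotropin-releasing hormone signalling, 25 had a region. None was called between genotypes in nB or GCB by limma. In BMPC their KO minus C differences ran from -0.56 to 0.62 with a median of -0.02. The list was read only at the region nearest each gene's start, and F2rl1 was chosen by this contrast, so these values are not compared with F2rl1. Of the 25, 3 were called higher and 4 lower in C GCB than in C nB (14.2% and 8.47% over all regions), and 4 higher and 4 lower in KO GCB than in KO nB (18.4% and 7.84%). In C BMPC 4 were called higher and 1 lower than in C nB (18.0% and 20.1% over all regions), and 9 higher and 0 lower than in C GCB (11.3% and 19.1%). Procr, the endothelial protein C receptor that presents activated protein C to PAR1, rose at its start from 1.38 ± 0.393 RPPM in C nB to 9.95 ± 1.90 RPPM in C BMPC (SD, n = 3 each), a difference of 2.20 (SE 0.34, limma, adjusted p = 2.99e-06). Serpinc1, which encodes the thrombin inhibitor antithrombin, rose at a region 5.8 kb from its start by 2.09 (SE 0.30, adjusted p = 1.04e-06).

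Among the signalling genes downstream of the receptors, Arhgef1 and Arhgef12 encode exchange factors that act downstream of G12/13 proteins. At the Arhgef1 start, C nB measured 43.3 ± 7.05 RPPM (SD, n = 3), C GCB 11.6 ± 2.76 RPPM (SD, n = 2) and C BMPC 29.2 ± 2.54 RPPM (SD, n = 3), with a difference of -1.82 from C nB to C GCB (SE 0.22, limma, adjusted p = 1.43e-07). Arhgef12 was highest in C BMPC, at 62.1 ± 2.33 RPPM (SD, n = 3), and differed from C nB there by 1.64 (SE 0.13, limma, adjusted p = 2.02e-11). Plcb4, a phospholipase C, and F3, which encodes tissue factor, the starter of the clotting cascade, were highest in GCB, with rises from C nB of 1.63 (SE 0.34, limma, adjusted p = 0.000355) and 1.58 (SE 0.38, adjusted p = 0.00146).

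The 5 regions outside the locus whose log2(RPPM + 1) followed the S100z distal region most closely over the 16 libraries lay at Gpc6 (Pearson r = 0.877), Sv2c (0.873), Plekha7 (0.862), Tuba3b (0.857) and Nfatc1 (0.856). At all 5 the KO BMPC mean exceeded the C BMPC mean, for instance 6.34 against 1.61 RPPM at Gpc6 and 5.76 against 1.21 RPPM at Nfatc1. This follows from how they were picked, since the S100z distal region was itself highest in KO BMPC and the same libraries were used. The F2r promoter was followed most closely by another region of Plekha7 (0.825) and by regions at Crbn (0.822), Ppp1r14a (0.813), Galnt11 (0.811) and Smad3 (0.810). These are descriptions over 16 libraries that share cell types and depths, picked as the highest of all regions, and carry no test.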

How the data were processed

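Per the labels and the study's methods, the authors mapped ATAC-seq reads to mm9 with Bowtie (version 1.1.1 in the submitters' processing notes), removed duplicates with Picard 1.127, called peaks in each sample with MACS2, merged them into a union of 66177 regions and deposited for each region and library an RPM value (RPPM), the reads in the region scaled to 1000000 reads in all regions. The deposited fold changes, p-values and FDR of the authors' own comparisons, made with edgeR 3.12.1, were not used. Gene assignments, distances and annotations are those of the table, and gene spans and sequence are from the GENCODE vM1 annotation and its genome, the same build as mm9.

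The 26 regions, and all lists of genes and markers, were chosen with earlier results of these data known. Samples were grouped by cell type and genotype as labelled, and 1 of 17 labelled samples had no values here. RPPM divided by the value of 1 read gave whole numbers in 100% of 1058832 values (tolerance 1e-06). The main test was limma 3.58.1 (R 4.3.3) on log2(RPPM + 1), which understates changes at low values, with a mean for each of the 6 groups and a variance trend, and p-values of each comparison were adjusted over the whole table by the Benjamini-Hochberg method. On the recovered reads, the quasi-likelihood test of edgeR 4.0.16 called 1 region of the table between KO and C GCB and 7 between KO and C nB. Its likelihood ratio test called 12 and 10, and DESeq2 1.42.0 called 0 and 1. P-values measure the spread between libraries of separate mice or pools. Replicates differed by more than counting noise, with a chi-square per degree of freedom of 1.18 to 2.20, and none was a copy of another. A floor of 3 reads was used. On simulated counts with 200 regions changed 4-fold, limma recovered 55.0% between C GCB and C nB and 71.0% between C BMPC and C nB. The changed regions were drawn above a minimum mean read count, with a single fixed dispersion, so these shares do not cover regions with few reads.

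Regions were described in full where they lay nearest to a gene's start, had 1 of the 3 greatest KO minus C differences in BMPC, or were called in a tested comparison. Of the list of signalling genes, up to 6 with the greatest called differences were named. Sequence was counted on named chromosomes only. Alternatives were the count tests, pseudocounts of 0.1 and 5 RPPM, a filter on means under 1 RPPM, other scaling (TMM or quantile), a fit without the trend, a limit of 0.05 on the adjusted p, the GCB pool names as a replicate block, and the omission of single libraries. Python 3.11.15, numpy 2.4.6, pandas 2.3.3 and matplotlib 3.10.9 were used for tables and plots.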

Additional observations from a re-analysis of the deposited data

Results flagged for a closer look

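In the group of 4 KO GCB libraries, the only group large enough for the check, the library farthest from the others was set apart by Dixon's criterion in 2 of the 26 regions, where chance sets apart about 1 in 20 groups. KO GCB library 2 measured 3.18 RPPM at the Iqgap2 intronic region 0.7 kb inside the gene, where the other 3 measured 2.20, 2.19 and 2.10 RPPM. These values rest on 5 reads in library 2 and on 2, 5 and 3 reads in libraries 1, 3 and 4. Library 1 was under its floor and library 4 at its floor. KO GCB library 1, the least deeply sequenced with 907959 reads, measured 23.1 RPPM at the Iqgap2 promoter region, where the others measured 16.5, 16.2 and 16.1 RPPM.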

How the results depend on the processing

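Of the recomputed summary values, 304 stayed within the limits set for them and 20 moved. These values are counts of called regions, which cannot change sign, apart from the S100z distal difference in BMPC, which kept its sign. The counts of called regions depended most on the pseudocount. With 5 RPPM added in place of 1, limma called 3 of the 26 regions between C GCB and C nB in place of 8, 4 between KO GCB and KO nB in place of 11, 4 between C BMPC and C nB in place of 9, and 0 between C BMPC and C GCB in place of 5, and of the signalling list 3 between C GCB and C nB and 3 between KO GCB and KO nB. With 0.1 RPPM the C BMPC and C GCB count was 2, and with DESeq2 it was 3. Quantile normalization, under which the median of all regions shifted by more than 0.1 in comparisons of GCB with nB or BMPC (from 0.05 to -0.06 between C GCB and C nB), gave 7 of the 26 and 3 of the list between KO GCB and KO nB. The difference between KO and C BMPC at the S100z distal region, 4.10, became 5.60 with 0.1 RPPM and 2.40 with 5 RPPM. Leaving out 1 library at a time gave 3.94 to 4.30 there. The same procedure gave 4 to 9 of the 26 regions between C GCB and C nB (lowest without C GCB library 1), 6 to 11 between KO GCB and KO nB (7 and 6 without KO nB library 1 and 2), 7 to 10 between C BMPC and C nB, and 2 to 5 between C BMPC and C GCB (2 without C BMPC library 2 or 3 or without C GCB library 1 or 2). For the list it gave 3 to 8 between C GCB and C nB (lowest without C GCB library 2), 6 to 9 between KO GCB and KO nB, 4 to 5 between C BMPC and C nB and 7 to 9 between C BMPC and C GCB. In GCB, 2 pool names occur in both genotypes. Pools of the same name deviated together only weakly (correlation over regions 0.036 and 0.064), and with these names as a replicate block 0 of the 26 regions were called between KO and C GCB. Of single regions, 743 recomputed values kept their call and 114 lost it. Of the 33 calls among the 26 regions, 10 were kept under all alternatives and 15 with each library left out. Depth limits GCB values under each library's floor, 1.32 to 3.30 RPPM.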
